A study of Mus with 10 samples.

Results

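Genes that mark dermal fibroblasts or encode small matrix proteoglycans, 10 in all, were followed across skin of 3 groups of mice: Pdgfra, Pdgfrb, Dcn, Bgn, Lum, Ogn, Fbln1, Dpt, Pi16 and Thy1. They were chosen by name, with earlier results of these data known, and all 10 were found among the 22180 genes of the series. The mice were female BALB/c, 7 to 8 weeks old, and whole skin was arrayed. Control skin filled 2 arrays, skin from the PUVA arm with the 3-day gap filled 4 (called the 3-day group here), and skin from the arm with the 7-day gap filled another 4 (the 7-day group). PUVA is topical psoralen, a DNA crosslinker that light activates, with UVA, and mice got it 2 times per week over 2 weeks at 0.25 J/cm2. The study followed the gap with imiquimod, which causes a psoriasis-like dermatitis, but the labels leave unsaid whether the arrayed skin had received it, and what the controls received.

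Fibroblasts make the collagen-rich matrix of the dermis. Dcn, Bgn, Lum and Ogn encode decorin, biglycan, lumican and osteoglycin, small leucine-rich proteoglycans that bind collagen fibrils and regulate their assembly, and decorin and biglycan also bind growth factors such as TGF-beta. Pdgfra and Pdgfrb encode the receptors for platelet-derived growth factors, the first used as a general fibroblast marker in skin and the second shared by fibroblasts and the pericytes of small vessels. Dpt (dermatopontin) and Fbln1 (fibulin-1) encode matrix proteins. Pi16 marks fibroblasts of the adventitia and fascia, and Thy1 encodes CD90, a surface protein of fibroblasts that T cells of mice also carry.

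Each array had a median log2 signal of 5.83 to 5.86, and the signals of all genes correlated between arrays at 0.988 to 0.996. The keratinocyte marker Krt14 was bright in every group, from 11.76 to 12.18. The controls differed from each other in genes of the hair shaft and inner root sheath: the mean of 10 such genes was 6.15 on control replicate 1 and 8.35 on control replicate 2, against 4.88 to 5.40 on the PUVA arrays. The signals of the 10 fibroblast and proteoglycan genes ran from 8.96 to 12.83 and lay above the upper quartile of every array, which was 7.68 to 7.73. Separate animals are implied by the sample titles alone, so the p-values reflect array-to-array spread that could be technical. In whole skin, fewer fibroblasts and less RNA per fibroblast cannot be told apart.

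The comparison of the 3-day group with control asks how the dermal cell genes stood after the shorter gap. All 10 genes lay higher in the 3-day group, by log2 changes of 0.081 to 0.44 with a median of 0.24, against a median of 0.0023 over all genes. None passed an adjusted p of 0.05 in limma, a threshold that 0.00451% of all genes passed in this comparison. At an unadjusted p under 0.05, Fbln1 and Dpt lay higher, which is 2 of 10, against 5.67% of all genes that were higher by this rule, and 0 lay lower, against 4.07%. A log2 change above 0 was found for 50.6% of all genes. Leaving out 1 array altered these counts: without control replicate 1, 8 genes stayed above 0 and 0 were under the unadjusted limit, and without 3-day replicate 4 there were also 0 under it.

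For the 7-day group against control the question is the same after the longer gap, with the same 2 controls. Here 7 genes lay above 0 and 3 below (Pdgfra, Bgn and Thy1), with a median of 0.069 and values from -0.22 to 0.20. Over all genes 55% lay above 0 and 45% below. At an unadjusted p under 0.05 no member was higher or lower, against 3.21% and 2.68% of all genes (713 and 594 genes in limma), and no gene of the array passed the adjusted threshold. For no member did the 7-day arrays all lie above or all below both controls, which 8.56% and 5.85% of all genes did. Without control replicate 1 the median was -0.052, with 4 genes above 0 and Bgn under the unadjusted limit at -0.44.

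The 7-day group set against the 3-day group compares the gaps without the controls as reference. It uses the same 3-day arrays as the comparison of the 3-day group with control, so their values move both comparisons, in opposite directions. All 10 genes lay lower at 7 days, by log2 differences of -0.34 to -0.031 with a median of -0.26, where 46.8% of all genes lay lower. Pdgfrb and Bgn had an unadjusted p under 0.05, which is 2 of 10, against 4.43% of all genes that were lower by this rule, and 0 were higher, against 5.33%. No member had 7-day arrays wholly below or wholly above the 3-day arrays, where 2.28% and 2.95% of all genes did. None passed the adjusted threshold, which 0.00902% of all genes passed in limma. The median was -0.14 without 3-day replicate 2 and -0.13 without 7-day replicate 2. Without 3-day replicate 4, or any of 7-day replicates 1, 2 and 4, no member had an unadjusted p under 0.05. Without 3-day replicate 2 it was Pdgfrb and without 3-day replicate 3 it was Pdgfra.

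**Figure D1:**
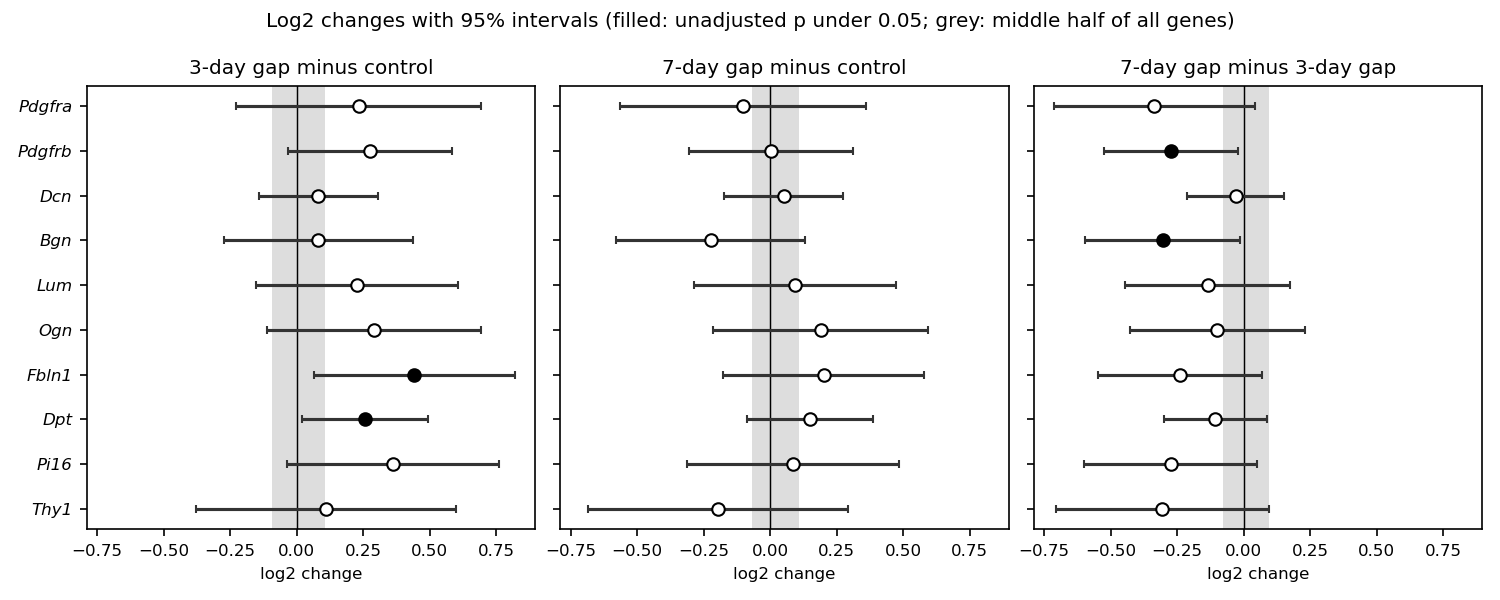
Log2 changes of the 10 genes (points) with 95% intervals of the limma fit (bars) in the 3 comparisons; filled points had an unadjusted p under 0.05, and the grey band spans the interquartile range of the changes of all 22180 genes. All points lie above 0 for the 3-day group against control and all lie below 0 for the 7-day against the 3-day group, while most intervals cross 0. Both of these comparisons use the same 3-day arrays.

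Of the receptors, Pdgfra had log2 signals of 10.12 and 10.12 in control, 10.22, 10.93, 10.06 and 10.19 in the 3-day group and 10.18, 9.80, 9.98 and 10.09 in the 7-day group. One array, 3-day replicate 2, stood well above the other 9, and the groups overlapped. The change of the 3-day group against control was 0.23 ± 0.21 (SE, adjusted p = 0.782 in limma), and without 3-day replicate 2 it was 0.038. Between the gaps the difference was -0.34 ± 0.17 (SE, adjusted p = 0.552), and -0.14 without that array. At 7 days the change against control was -0.10 ± 0.21 (adjusted p = 0.977), which was -0.031 without 7-day replicate 2 and -0.16 without 7-day replicate 1.

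Pdgfrb stood at 9.31 and 9.49 in control, at 9.46, 9.52, 10.02 and 9.70 in the 3-day group and at 9.34, 9.38, 9.47 and 9.43 in the 7-day group. The 7-day arrays lay within the range of the controls, and 3-day replicates 3 and 4 were the highest of the 10, with replicate 1 just below the highest 7-day array. The 7-day group was 1.21-fold lower than the 3-day group, a log2 difference of -0.27 ± 0.11 (SE, limma unadjusted p = 0.0362, adjusted p = 0.484), and -0.16 without 3-day replicate 3. Against control the changes were 0.28 ± 0.14 (adjusted p = 0.559) at 3 days and 0.0036 ± 0.14 (adjusted p = 0.998) at 7 days. Without 3-day replicate 3 the first of these was 0.16. Markers of pericytes, which share Pdgfrb, are given with the other cell types: Rgs5 and Notch3 had log2 differences of 0.066 and 0.074 between the gaps. Both were highest on 7-day replicate 3, at 10.84 and 8.84. The median difference between the gaps over 12 pericyte and smooth muscle genes was 0.016, and -0.018 without that array.

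**Figure D2:**
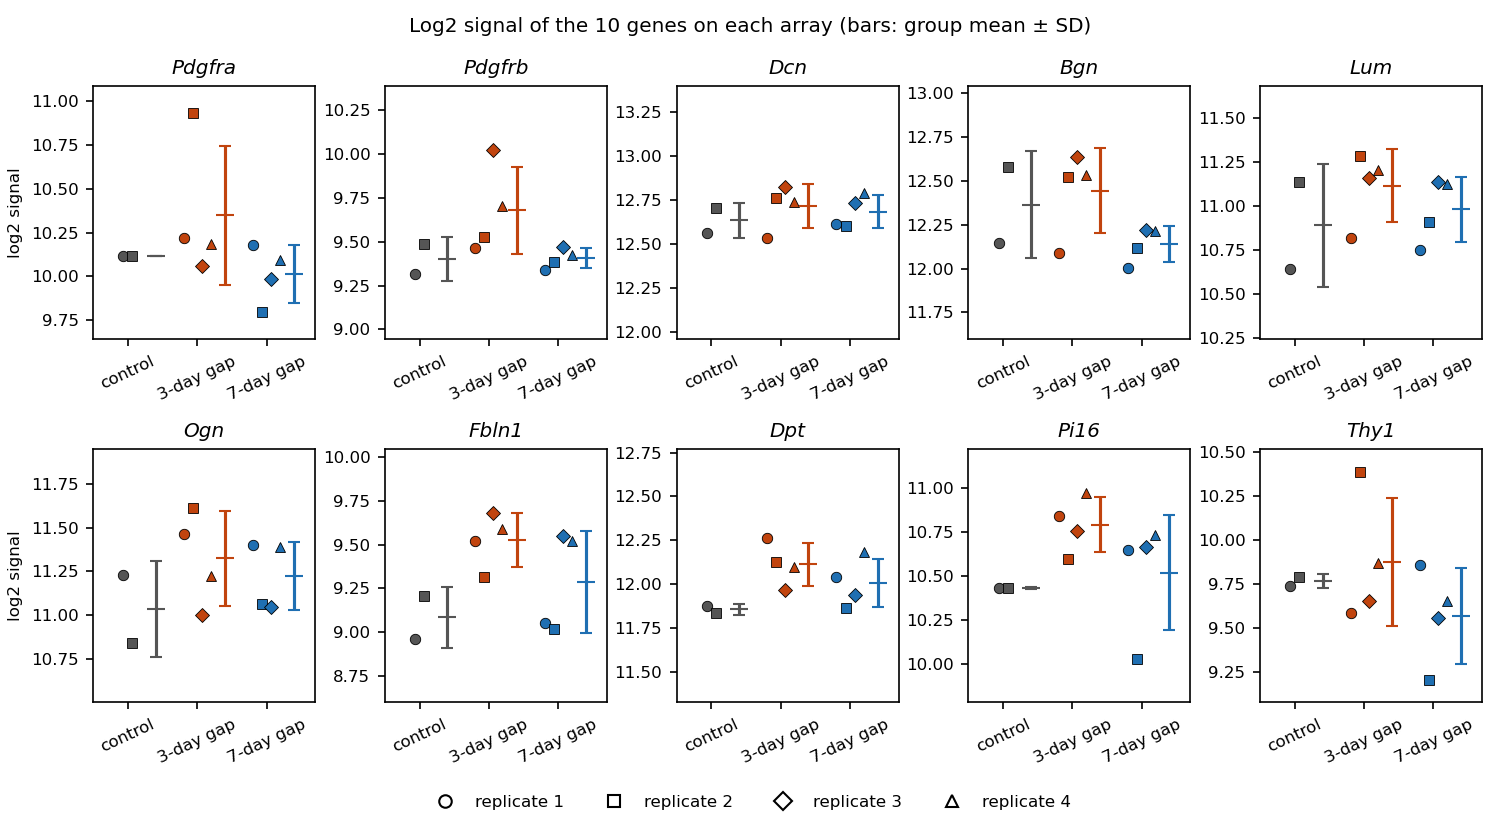
Log2 signal (vertical axis, the same span in each panel) of the 10 genes on the 2 control arrays, 4 arrays of the 3-day group and 4 of the 7-day group; each symbol is 1 array, and the bars give the group mean ± SD. Pdgfra and Thy1 are highest on 3-day replicate 2 at 10.93 and 10.39, and Fbln1, Dpt and Pi16 are the genes whose 3-day arrays all lie above both controls.

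Among the proteoglycans, Dcn was the steadiest over the arrays, with a range of 0.29 on the log2 scale. Its signals were 12.57 and 12.70 in control, 12.53, 12.76, 12.83 and 12.74 in the 3-day group and 12.61, 12.61, 12.73 and 12.79 in the 7-day group. The groups overlapped throughout, and the lowest and highest of the 10 values were both 3-day arrays. The changes against control were 0.081 ± 0.10 (SE, 95% interval -0.14 to 0.30) at 3 days and 0.050 ± 0.10 (-0.17 to 0.27) at 7 days, with adjusted p of 0.854 and 0.977 in limma. Without control replicate 1 they were 0.011 and -0.020, and without control replicate 2 they were 0.15 and 0.12. The difference between the gaps was -0.031 ± 0.082 (-0.21 to 0.15), and its sign turned to 0.0064 without 3-day replicate 3.

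Bgn, the relative of decorin, had 12.15 and 12.58 in control, 12.09, 12.52, 12.63 and 12.53 in the 3-day group and 12.00, 12.12, 12.22 and 12.22 in the 7-day group. All 3-day arrays but replicate 1 lay above every 7-day array, and replicate 1 lay among them. The 7-day group was 1.24-fold lower than the 3-day group, a difference of -0.30 ± 0.13 (SE, limma unadjusted p = 0.0413, adjusted p = 0.493). Bgn is the 1 member with a second probe set on the array, which gave -0.29 between the gaps with an unadjusted p of 0.117 in limma (0.0679 for the mean of both probe sets). Against control the changes were 0.081 ± 0.16 at 3 days and -0.22 ± 0.16 at 7 days. As the controls differed by 0.43, the first was -0.14 without control replicate 1 and 0.30 without control replicate 2, and the second -0.44 and -0.0080.

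Lum, which lies next to Dcn in the gene order of the RefSeq table (assembly GRCm38.p6), had signals of 10.64 and 11.14 in control, 10.82, 11.29, 11.16 and 11.20 in the 3-day group and 10.75, 10.91, 11.14 and 11.13 in the 7-day group. The controls lay far apart, and both PUVA groups overlapped their range. The changes against control were 0.23 ± 0.17 (SE, adjusted p = 0.728 in limma) and 0.092 ± 0.17 (adjusted p = 0.975), and they were -0.020 and -0.15 without control replicate 1 and 0.47 and 0.34 without control replicate 2. Ogn, whose neighbours in that order are the related genes Omd and Aspn, had 11.23 and 10.84 in control, 11.46, 11.61, 11.00 and 11.22 in the 3-day group and 11.40, 11.06, 11.05 and 11.39 in the 7-day group. For Ogn the second control was the lowest of the 10 arrays, opposite to Lum, where the first control was. The Ogn changes against control were 0.29 ± 0.18 (adjusted p = 0.664) and 0.19 ± 0.18 (adjusted p = 0.96). Without control replicate 2 they were 0.096 and -0.0041, and without control replicate 1 they were 0.48 and 0.38.

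Of the matrix proteins, Fbln1 had the largest change of the 10 genes in the 3-day group. It stood at 8.96 and 9.21 in control, at 9.52, 9.32, 9.68 and 9.59 in the 3-day group and at 9.06, 9.02, 9.55 and 9.52 in the 7-day group. Each 3-day array lay above both controls, while the 7-day arrays fell apart into a pair among the controls and a pair among the 3-day arrays. The 3-day group was 1.36-fold higher than control, a log2 change of 0.44 ± 0.17 (SE, limma unadjusted p = 0.0263, adjusted p = 0.462), which was 0.32 without control replicate 1 and 0.56 without control replicate 2. The 7-day group differed from control by 0.20 ± 0.17 (adjusted p = 0.951) and from the 3-day group by -0.24 ± 0.14 (adjusted p = 0.607). The first of these ran from 0.079 without control replicate 1 to 0.32 without control replicate 2, and was 0.11 and 0.12 without 7-day replicates 3 and 4. The second was -0.15 without 7-day replicate 2.

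Dpt stood at 11.88 and 11.84 in control, at 12.26, 12.13, 11.97 and 12.10 in the 3-day group and at 12.04, 11.86, 11.94 and 12.18 in the 7-day group. Again the 3-day arrays all lay above both controls, and all 7-day arrays but replicate 2 did. The 3-day group was 1.19-fold higher than control, a log2 change of 0.26 ± 0.11 (SE, limma unadjusted p = 0.0371, adjusted p = 0.493). It ranged from 0.21 to 0.31 when single arrays were left out. At 7 days the change was 0.15 ± 0.11 (adjusted p = 0.944), and 0.091 without 7-day replicate 4.

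Pi16 was nearly equal in the controls, at 10.43 and 10.43, with 10.84, 10.60, 10.76 and 10.97 in the 3-day group and 10.65, 10.03, 10.66 and 10.73 in the 7-day group. It is the third gene, with Fbln1 and Dpt, whose 3-day arrays lay wholly above the controls, so that 3 of 10 did, against 9.52% of all genes, and 0 of 10 lay wholly below them, against 7.89%. On 7-day replicate 2 it was lower than on any other array. The log2 changes against control were 0.36 ± 0.18 (SE, adjusted p = 0.555 in limma) at 3 days and 0.087 ± 0.18 (adjusted p = 0.978) at 7 days, and the latter was 0.25 without 7-day replicate 2 and 0.044, 0.039 and 0.015 without 7-day replicates 1, 3 and 4. The difference between the gaps was -0.27 ± 0.15 (adjusted p = 0.573), and -0.11 without 7-day replicate 2.

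Thy1 stood at 9.73 and 9.79 in control, at 9.58, 10.39, 9.65 and 9.87 in the 3-day group and at 9.86, 9.20, 9.56 and 9.65 in the 7-day group. The 3-day arrays surrounded the controls, and the highest and lowest of all values were replicates numbered 2 of the PUVA groups, a number given by sample order. The changes against control were 0.11 ± 0.22 (SE, adjusted p = 0.918 in limma) and -0.20 ± 0.22 (adjusted p = 0.964), with the first at -0.063 without 3-day replicate 2. The second was -0.075 without 7-day replicate 2 and -0.29 without 7-day replicate 1. The difference between the gaps was -0.31 ± 0.18 (adjusted p = 0.614), and it was -0.13 without 3-day replicate 2 and -0.18 without 7-day replicate 2. The T cell markers Cd3e and Cd3g, which bear on Thy1, had 8.94 and 8.61 on 3-day replicate 2, where Thy1 was highest. That Cd3e value was the lowest of the 10. On 7-day replicate 2, where Thy1 was lowest, Cd3e and Cd3g had 9.28 and 8.77.

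The members differed in which array they followed. Every one had its highest signal on a 3-day array (41.6% of all genes did), with 4 on replicate 2 (Pdgfra, Lum, Ogn and Thy1), 4 on replicate 3 (Pdgfrb, Dcn, Bgn and Fbln1), Dpt on replicate 1 and Pi16 on replicate 4. The lowest signal was on a control for 5 members (20.1% of all genes) on a 7-day array for 4 (34.7%) and on a 3-day array for Dcn (45.2%). On 7-day replicate 2 none of the 10 was above its own mean over the arrays, and on 3-day replicate 4 there were 9. Over the 10 arrays, the 45 pairs of members had correlations from -0.34 to 0.93 with a median of 0.35, a description of arrays that share group and tissue makeup. The closest pairs were Pdgfra with Thy1 at 0.93 and the neighbours Dcn and Lum at 0.88, and the lowest was Bgn with Ogn at -0.34. Pdgfra and Thy1 shared their extreme arrays. Their centred signals were 0.76 and 0.66 on 3-day replicate 2 and -0.37 and -0.53 on 7-day replicate 2. How far their correlation rests on these arrays was not tested. With group means removed, Bgn had 0.92 with both Dcn and Lum, and Ogn had 0.74 with Dpt and -0.81 with Pdgfrb.

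**Figure D3:**
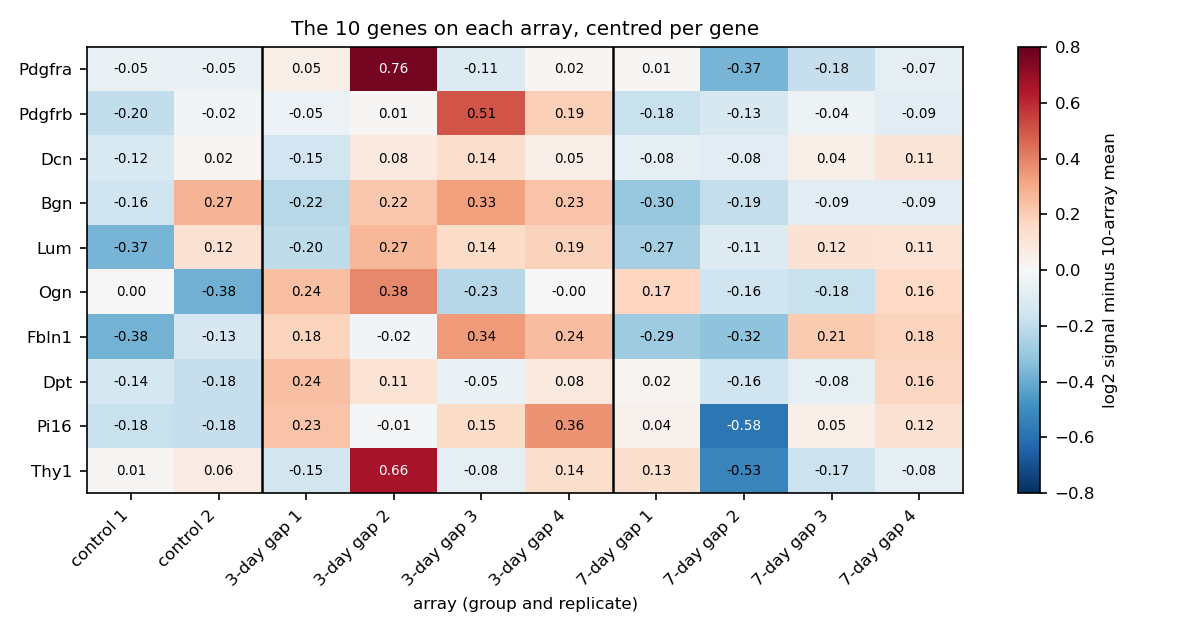
Log2 signal of each gene minus its mean over the 10 arrays, for the 10 genes (rows) and 10 arrays (columns, control, 3-day gap and 7-day gap divided by lines). Pdgfra and Thy1 stand out together on 3-day replicate 2, Pdgfrb on 3-day replicate 3, and all 10 genes are below their mean on 7-day replicate 2.

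Related genes were read from written lists, none of whose members passed the adjusted threshold in limma. The counts of every list below stand beside these shares of all genes. In the 3-day group against control 50.6% lay above 0, with 5.67% higher and 4.07% lower at an unadjusted p under 0.05. In the 7-day group against control these shares were 55%, 3.21% and 2.68%. Between the gaps 46.8% lay below 0, with 4.43% lower and 5.33% higher. Of 12 other measured small leucine-rich proteoglycans, 9 lay above 0 in the 3-day group against control (median 0.22), with 3 higher and 0 lower at an unadjusted p under 0.05. Aspn (asporin, neighbour of Omd) had 10.12 and 10.12 in control, 10.30, 10.61, 10.70 and 10.66 in the 3-day group and 9.81, 10.26, 10.05 and 10.25 in the 7-day group. Its 3-day arrays lay above all others, with changes of 0.45 ± 0.14 (SE, adjusted p = 0.389) against control and -0.48 ± 0.12 (adjusted p = 0.276) from the 3-day to the 7-day group. Chad (chondroadherin) had 0.72 ± 0.20 and -0.58 ± 0.16 in the same comparisons, and Omd (osteomodulin) 0.60 ± 0.23 and -0.24 ± 0.18. Chad was dim, at 5.21 and 4.78 in control and 5.40 to 6.12 in the 3-day group, where the array medians were 5.83 to 5.86. The count of 3 higher fell to 1 without control replicate 2, and the median was 0.13 without control replicate 1 and 0.11 without 3-day replicate 3.

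In the fibulin and microfibril list, 8 of 9 measured genes lay above 0 in the 3-day group (median 0.28, 4 higher by the unadjusted limit), and all 9 lay lower at 7 than at 3 days (median -0.32, 3 lower). Fbln2 had 0.38 ± 0.12 (SE, adjusted p = 0.375) and -0.46 ± 0.097 (adjusted p = 0.218) in limma. Mfap5 had 0.71 ± 0.21 and -0.42 ± 0.17, while Efemp1 (fibulin-3) had 0.36 ± 0.12 and -0.046 ± 0.099. Without control replicate 1 the median against control was -0.15, with 4 genes above 0 and 0 under the unadjusted limit. It was 0.45 without control replicate 2 and 0.16 without 3-day replicate 3, and the median between the gaps was -0.21 without 7-day replicate 1. Of the PDGF ligands and the receptor-like gene Pdgfrl, 5 of 5 lay above 0 in the 3-day group (median 0.17). The ligand gene Pdgfd had 0.62 ± 0.24 (adjusted p = 0.461), and Pdgfrl had 0.54 ± 0.26 against control and -0.53 ± 0.21 between the gaps. That median was 0.089 without 3-day replicate 2 and 0.26 without 3-day replicate 3, and Pdgfd was the 1 gene under the unadjusted limit, with 0 when control replicate 1 or 3-day replicate 1 was left out.

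Decorin and biglycan carry chondroitin or dermatan sulphate chains and lumican can carry keratan sulphate. Of 25 measured genes for the synthesis of these chains, 17 lay above 0 in the 3-day group against control (median 0.11), 6 higher and 1 lower at an unadjusted p under 0.05, and between the gaps 18 lay below 0 with 6 lower and 0 higher. Dse, the epimerase that makes dermatan sulphate, had 0.51 ± 0.14 (SE, adjusted p = 0.319 in limma) and -0.35 ± 0.12 (adjusted p = 0.407). Chpf, a chondroitin polymerizing factor, had 0.51 ± 0.14 and -0.42 ± 0.12, and Csgalnact2, which starts the chain, had 0.34 ± 0.093 and -0.17 ± 0.076. Without control replicate 1, 2 genes were higher in the 3-day group. Of 18 proteoglycans of other families, 4 were higher and 1 lower at 3 days, and 2 were higher without control replicate 1. The higher genes included Srgn (serglycin, of blood cells) at 0.34 ± 0.087 and, chosen after their values were seen, Hspg2 (perlecan) at 0.72 ± 0.24 and Sdc3 (syndecan-3) at 0.69 ± 0.28. The lower gene was Acan (aggrecan) at -1.55 ± 0.43, with signals of 4.63 and 6.71 on the controls and 3.90 to 4.39 on the 3-day arrays. Vcan (versican) was not among the higher or lower genes, at 0.31 ± 0.28 against control, and had -0.84 ± 0.23 between the gaps. Of the 18, 11 lay above 0 at 3 days, with a median of 0.12, and of -0.013 without control replicate 1.

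Other general fibroblast genes, 17 in number, lay above 0 in the 3-day group in all 17 (median 0.45, 11 higher at an unadjusted p under 0.05) and below 0 between the gaps in all 17 (median -0.48, 12 lower). The shares of all genes were 50.6% above 0 and 5.67% higher at 3 days, and 46.8% below 0 and 4.43% lower between the gaps. Col5a1 had 0.80 ± 0.22 (SE, adjusted p = 0.319) and -0.92 ± 0.18 (adjusted p = 0.195), and Col3a1 0.77 ± 0.24 and -0.87 ± 0.20, all in limma. Without control replicate 1 the median against control was 0.21 with 1 gene under the limit, and without control replicate 2 it was 0.70 with 14. Of 17 genes of Pi16-positive or Dpt-positive fibroblasts, 16 lay above 0 in the 3-day group (median 0.34, 8 higher) and 16 in the 7-day group (median 0.23, 0 higher). Cd248 (endosialin) had 0.94 ± 0.32 and 0.23 ± 0.32 in these comparisons, which share the controls, and Igfbp6 had 0.77 ± 0.25 and 0.25 ± 0.25. Some genes sit in more than 1 of the lists, among them Cd248, Mfap5 and Gpc3, and are counted in each. The count of 8 was 4 without control replicate 1 or 3-day replicate 4 and 5 without control replicate 2 or 3-day replicate 1. The 0 higher in the 7-day group became 3 without control replicate 2, 2 without 3-day replicate 1 and 1 without 3-day replicate 3 or 7-day replicate 2.

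The other fibroblast lists did not lie uniformly higher at 3 days. Of 14 measured genes of papillary or reticular fibroblasts, 8 lay above 0 in the 3-day group (median 0.066, 3 higher and 0 lower at an unadjusted p under 0.05) and 6 in the 7-day group (median -0.025). The 3-day median was -0.011 without control replicate 1, 0.22 without control replicate 2, 0.21 without 3-day replicate 1 and 0.016 without 3-day replicate 2. Of 14 measured genes of the dermal papilla and sheath, 5 lay above 0 in the 3-day group (median -0.11, 0 higher and 0 lower), with a median of -0.20 without control replicate 1 and 0.034 without control replicate 2.

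Genes of activated and contractile fibroblasts were mixed against control, with 7 of 12 above 0 in the 3-day group (median 0.10) and 2 of 12 in the 7-day group (median -0.16). At an unadjusted p under 0.05, 1 was higher and 0 lower at 3 days, and 0 were higher and 1 lower at 7 days. The 1 lower became 0 when any single 7-day array was left out, and the 1 higher became 3 without 3-day replicate 1. Between the gaps 11 of 12 lay below 0 (median -0.25, 4 lower at an unadjusted p under 0.05), with Tnc (tenascin-C) at -0.89 ± 0.20 (SE, adjusted p = 0.235 in limma) and Sparc at -0.39 ± 0.11. Fn1 (fibronectin) had signals of 11.02 and 11.49 in control, 11.65 to 12.12 in the 3-day group and 11.21 to 11.96 in the 7-day group. The median of the 3-day group was -0.10 without control replicate 1 and 0.28 without control replicate 2, and 0.20 and 0.026 without 3-day replicates 1 and 3. That of the 7-day group was -0.26 without control replicate 1, -0.0078 without control replicate 2 and -0.094 without 7-day replicate 2, and 2 genes were lower between the gaps without 3-day replicate 2 or 7-day replicate 1.

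Marker lists of other cells were read beside these. In the 3-day group against control 50.6% of all genes lay above 0, and 5.67% were higher at an unadjusted p under 0.05. Macrophage genes lay above 0 in the 3-day group in 9 of 10 (median 0.53, 5 higher at an unadjusted p under 0.05), and their mean log2 signal was 8.98 to 9.13 in control, 9.21 to 10.15 in the 3-day and 9.04 to 9.48 in the 7-day group. The highest, 10.15, was on 3-day replicate 2, where Pdgfra and Thy1 were highest as well. The 5 higher genes became 0 without control replicate 1 and 3 without control replicate 2 or 3-day replicate 2. Schwann cell genes lay above 0 in the 3-day group in 5 of 5 (7.38 on both controls, 7.72 to 7.83 on the 3-day arrays), as did endothelial genes in 10 of 10 (7.79 to 7.91 against 8.01 to 8.13). Pericyte and smooth muscle genes had 5 of 12 above 0 (means of 8.82 to 8.83 in control, 8.72 to 8.92 and 8.77 to 9.01 in the PUVA groups) and T cell genes 5 of 11 (6.07 to 6.17, 6.05 to 6.26 and 5.96 to 6.28). Basal keratinocyte genes had 1 of 7, adipocyte genes 0 of 8 and skeletal muscle genes 3 of 8. Without control replicate 1 these counts were 2, 4 and 4, with T cell genes at 7 of 11, and without 3-day replicate 2 adipocyte genes had 3 of 8 and pericyte genes 9 of 12. Skeletal muscle genes had 1 of 8 without control replicate 2 or 3-day replicate 1 or 4. Defining markers were expressed on every array, with Adgre1 of macrophages at 8.29 to 9.12 and Cd3g of T cells at 8.43 to 8.91. The part of these cells in the differences of the 10 genes was not tested.

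**Figure D4:**
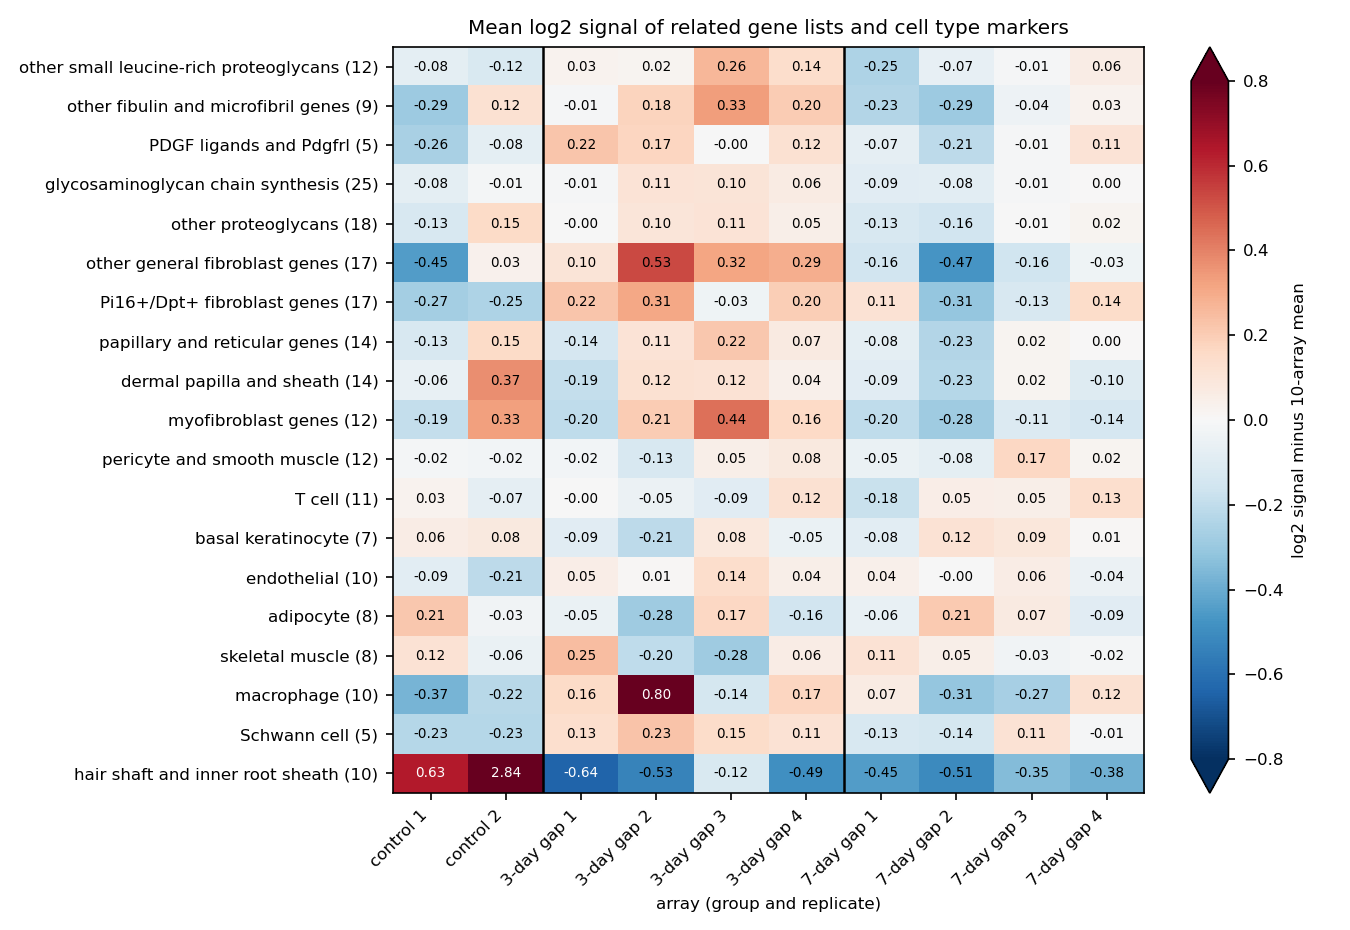
Mean log2 signal of each related list and marker list minus its mean over the 10 arrays (rows, number of measured genes in brackets; columns are arrays, and the colour scale ends at 0.8). General fibroblast genes are above their mean on every 3-day array, macrophage genes peak on 3-day replicate 2, and hair genes are highest on control replicate 2.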

How the data were processed

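The deposited table holds 1 value for each of 41345 probe sets on 10 Affymetrix arrays, read as log2 values made by the authors; neither the log base nor the normalization is stated in the labels, and the base was inferred from the range. Per the labels' protocols, RNA came from a miRNeasy kit with DNase digestion. Probe sets with 1 symbol in the platform annotation (23521) were kept, and each of 22180 genes took its probe set with the highest mean, with no filter on dim signal. RefSeq's table (GRCm38.p6) was used for gene order only, and sequences were not used here.

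A model with 1 mean for each of 3 groups was fitted in limma 3.58.1 (R 4.3.3) (two-sided, Benjamini-Hochberg over all genes, 7 residual and 3.51 prior degrees of freedom). Errors are standard errors that pool 1 spread per gene over the groups, controls included. On simulated data with 200 of 22180 genes shifted by a log2 change of 1, the fit recovered 83.5% in the comparison of the 3-day group with control. No shift as small as the members' changes was simulated, so this says nothing about recovery at their size.

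The 10 members, the gene lists (229 of 242 symbols matched) and the tests were chosen with earlier results of these data known. Named besides the members were up to 3 genes of each list with the smallest unadjusted p under 0.05, the first 2 markers of each cell type, and the 5 genes most like the members. The text gives a selection. The alternatives tried were dropping the dimmest 30% of genes, the mean of all probe sets, quantile normalization, median centring, trend and robust eBayes, array weights, only the groups compared, an adjusted p of 0.1, and leaving out each array. Array number limits the precision.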

Additional observations from a re-analysis of the deposited data

Results flagged for a closer look

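Of 20 checks for a lone array (10 genes in 2 PUVA groups of 4), 1 stood out: Pi16 on 7-day replicate 2 was 10.03, with the next array at 10.65. This gap is 0.877 of the group's range of 0.70, past the Dixon limit for 4 values, which chance passes in about 1 of 20 groups.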

How the results depend on the processing

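No member passed an adjusted p of 0.05 under any alternative run. With the processing altered, the number of genes of the array past it was 3 with array weights and 16 at an adjusted p under 0.1 for the 3-day group against control (1 as reported). Between the gaps (2 as reported) it was 1 without the lowest 30% of genes or with only the groups compared, and 6 with array weights or at an adjusted p under 0.1. With the mean of all probe sets 1 member was lower between the gaps at an unadjusted p under 0.05, and with quantile normalization Pdgfrb at 7 days against control was -0.0046.

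With single arrays left out, genes past the adjusted threshold ranged from 1 to 182 for the 3-day group against control. They ranged from 0 to 217 for the 7-day group against control and from 0 to 10 between the gaps. The 182 and 217 came without control replicate 1. Leaving out either control leaves a lone control that takes its spread from the PUVA groups. Why the counts were highest without control replicate 1 was not tested. Members under the unadjusted limit ranged from 0 to 3 higher at 3 days, 0 to 1 higher and 0 to 1 lower at 7 days, and 0 to 3 lower between the gaps. Members above 0 ranged from 8 to 10, 4 to 7 and 0 to 1. The members' median ranged from 0.18 to 0.27, from -0.052 to 0.096 and from -0.30 to -0.13. Genes whose sign turned, with their ranges, were Bgn (-0.14 to 0.30), Lum (-0.020 to 0.47) and Thy1 (-0.063 to 0.21) at 3 days. At 7 days these were Pdgfrb (-0.084 to 0.091), Dcn (-0.020 to 0.12), Lum (-0.15 to 0.34) and Ogn (-0.0041 to 0.38), and between the gaps Dcn (-0.091 to 0.0064). Beyond the arrays left out, the cause of these shifts was not tested. No paired analysis was possible because the replicate numbers follow sample order and pair nothing.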

Other observations

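Of 14 measured genes of the dermal papilla and sheath, 12 lay below 0 in the 7-day group against control (median -0.21), where 45% of all genes did. Corin, a protease of the dermal papilla, had a log2 change of -0.82 ± 0.32 (SE, adjusted p = 0.808 in limma) in this comparison. Corin was 6.18 and 7.19 on the 2 controls, 5.70 to 6.88 on the 3-day and 5.78 to 5.97 on the 7-day arrays. Without control replicate 2, the array with the highest hair signals, the median was -0.022 with 7 genes above 0, and without control replicate 1 it was -0.34. Acan, which encodes aggrecan, was 4.63 and 6.71 on the controls and 3.90 to 4.51 on the PUVA arrays.

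The 5 named genes whose pattern over the 10 arrays lay nearest to the median pattern of the members were Cped1, Rsu1, Ubxn2b, Sbf2 and Tradd. Their centred log2 signals differed from it by 0.034 to 0.041 on average per array, against a median of 0.155 over all genes. Cped1 had 10.02 and 10.11 in control, 10.11, 10.31, 10.22 and 10.16 in the 3-day group and 10.10, 9.96, 10.07 and 10.20 in the 7-day group. The members themselves lay 0.068 (Dcn) to 0.20 (Thy1) from their own median. The 5 genes were picked for the smallest distances among the named genes of the array, so their lying nearer follows from that choice.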
